A study of Mus musculus with 6 samples.

Results

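Somatostatin, its 5 receptors and the transcription factor Hhex were followed in the duodenum of mice in which the intestinal epithelium carried the transcription factor Nkx2.2 only in its SD form. The 7 genes, Sst, Sstr1 to Sstr5 and Hhex, were taken by symbol from the tables of FPKM (fragments per kilobase of transcript, scaled to mapped reads). They are 7 of 23026 gene symbols used, each had a single row, and 5 of them reached the average of 0.2 FPKM over all 6 libraries required to enter the test across all genes. RNA came from the 2 cm of duodenum nearest the stomach of mice aged 6 weeks and of mixed background, with 3 control and 3 mutant libraries. Control 1 was Nkx2.2flox/+; Rosa26Tomato/+, control 2 was Rosa26Tomato/+, and control 3 was wild type, so that no control carried Cre. All 3 mutants were Nkx2.2flox/SD; Villin-Cre/+, and mutants 1 and 3 also carried Rosa26Tomato/+, a fluorescent reporter. Villin-Cre is active in the intestinal epithelium, where it removes the floxed allele, while the SD allele, which alters the NK2-specific domain of the protein, is present in every cell of the mutants. An effect of Cre, of the lost allele and of the SD allele outside the epithelium cannot be told apart from that of the SD protein in epithelium. The libraries were taken as 6 mice, since no pair of one group shares both genotype and sex. Values joined as a pair below are controls first and mutants second, as mean FPKM ± SD (n = 3 per group) unless stated otherwise.

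Somatostatin is a short peptide hormone of endocrine D cells in the stomach, the gut and the pancreatic islets, and some enteric neurons also make it. It acts on neighbouring cells through receptors coupled to inhibitory G proteins, which lower cyclic AMP and restrain the release of other hormones, gastrin and secretin among them. Hhex is a homeodomain factor that D cells of the pancreatic islets need, and it also works in endothelium, B cells and the liver and duct lineage. Because whole duodenum was sampled, fewer cells of a type and less RNA per cell cannot be told apart for any gene below.

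The part of the Sst transcript that encodes the active hormone is shown first, because somatostatin-14 and somatostatin-28 are both cut from the end of the same precursor and RNA levels do not separate them. The last 28 codons of Sst lie in exon 2 of 2, on the minus strand at chr16:23889818-23889901 of mm9, the build of the files, and the 14 codons of somatostatin-14 are in capitals. Codons 3 and 14 of that stretch encode the 2 cysteines that close the peptide into a ring.
Sst coding end: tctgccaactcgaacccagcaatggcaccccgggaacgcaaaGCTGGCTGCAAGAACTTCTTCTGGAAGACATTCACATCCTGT

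The windows before the start sites of Sst and Sstr2 are shown because both hold the cyclic AMP response element TGACGTCA, the site at which the factor CREB binds the Sst promoter. They run from 250 bases before to 50 bases after the start, from RefSeq on GRCm38.p6, with the element in capitals. The Sst window is chr16:23890795-23891094 on the minus strand, and the Sstr2 window is chr11:113619077-113619376 on the plus strand.
Sst promoter: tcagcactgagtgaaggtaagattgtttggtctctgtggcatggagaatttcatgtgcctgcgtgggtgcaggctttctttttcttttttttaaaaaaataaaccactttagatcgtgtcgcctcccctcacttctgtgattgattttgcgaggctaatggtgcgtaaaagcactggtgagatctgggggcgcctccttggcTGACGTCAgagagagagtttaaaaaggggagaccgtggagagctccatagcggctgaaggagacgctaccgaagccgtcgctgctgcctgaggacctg
Sstr2 promoter: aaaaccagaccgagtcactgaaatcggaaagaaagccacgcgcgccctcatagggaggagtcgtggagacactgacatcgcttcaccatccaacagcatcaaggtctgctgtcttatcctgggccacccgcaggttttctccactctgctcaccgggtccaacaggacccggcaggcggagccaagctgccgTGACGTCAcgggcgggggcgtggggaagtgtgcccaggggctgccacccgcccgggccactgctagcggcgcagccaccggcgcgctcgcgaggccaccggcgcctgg
The element begins 48 bases before the start of Sst and 58 bases before that of Sstr2. It reads the same on both strands and was found in 588 of 32851 RefSeq windows of that length (1.79%). Of the 7 genes 5 matched a window, Sstr3 with 2, which gave 6 windows, and Sstr1 and Sstr5 had none in the table. The letters TAATTA, a form of homeodomain site (5.29% of all windows, either strand), and the NK2-class letters CAAGTG or CACTTG (13.6%) were in none of the 6 windows. Shorter or variant sites of these kinds were not searched, and the Sst window does hold the shorter homeodomain letters TAAT. The E-box CATCTG or CAGATG (17.2%) was in a window of Sstr3. None of these letters overlapped the response element, and a match describes the letters only.

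Sequencing depth, recovered from the deposited coverage, was 19.1 to 22.9 M reads (M for mega) per library. Enterocyte genes marked all libraries as small intestine: Alpi, an alkaline phosphatase, ranged from 2180 to 3041 FPKM and Vil1, which encodes villin, from 539 to 672 FPKM. From Xist and the Y-linked gene Ddx3y, control 1 and mutant 1 were male and the other 4 libraries female, with Ddx3y at 10.1 and 9.55 FPKM in those 2 and Xist at 17.1 to 21.9 FPKM in the rest. In FPKM, 10 stomach markers summed to 5860, 630 and 179 for controls 1 to 3 and to 5894, 1735 and 482 for mutants 1 to 3. Nearly all of this came from Tff2 and Gkn3, genes of mucous cells in the antrum, and Tff2 also of the duodenal Brunner glands, while Atp4a, Atp4b, Gkn1, Gkn2 and Muc5ac had between 0 and 9 reads in either group. Of 14642 genes tested with limma, 0 (0%) passed the threshold of 0.05 after Benjamini-Hochberg adjustment, and 416 (2.84%) were under 0.05 before it, 290 of them (1.98%) higher in mutants.

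Sst was the most abundant of the 7 genes by a wide margin, and all 3 mutants lay above all 3 controls. The gene lies on the minus strand at chr16:23889667-23890930. Controls 1 to 3 measured 83.2, 71.8 and 103 FPKM, and mutants 1 to 3 measured 151, 121 and 136 FPKM. The lowest mutant thus stood above the highest control, and the groups did not overlap. The means were 86.0 ± 15.8 and 136 ± 15.1 FPKM, a ratio of 1.58. The fitted log2 change was 0.67 (SE 0.15) on the log2(FPKM + 0.1) scale. It did not pass the test across all genes (limma adjusted p = 1.00, Benjamini-Hochberg), although Sst ranked at place 20 of the 14642 genes by unadjusted p. By exact permutation, two-sided, p was 0.1, the smallest that 3 libraries against 3 allow. Sst was the sole gene of the 7 whose groups did not overlap, and 4.14% of all genes tested had every mutant above every control. Of the 7 genes 5 were tested and all 5 had log2 changes above 0, against 51.2% of all genes, with a median of 0.30, that of Sstr5. Sstr5 reached the filter only through the mutants, at 0.201 FPKM over all libraries on group means of 0.166 and 0.237 FPKM. The 2 genes outside the test, Sstr3 and Sstr4, had log2 differences of -0.14 and -0.59. Between the male libraries the values of Sst were 83.2 and 151 FPKM, and among the females 71.8 and 103 against 121 and 136 FPKM.

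The counting error behind these values is small. Sst had 692, 547 and 852 reads in controls and 1123, 1033 and 1210 in mutants. With that many reads, counting alone gives a coefficient of variation of 3.79% in controls and 2.99% in mutants, whereas the observed values were 18.4% and 11.1%. The ratio of read rates was 1.57, with an exact 95% interval of 1.48 to 1.66. Since the reads carry no molecular identifiers, they are not independent molecules. This interval and those below therefore cover counting error only and not the variation between mice. In the authors' deposited table, made with DESeq, Sst had mean normalized counts of 706 and 1110, a fold change of 1.57, p = 0.000128 and an adjusted p of 0.217. In the authors' deposited table Sst ranked at place 11 of 18621 by p, and 5 genes passed. The fold changes of Sstr1 (1.11), Sstr2 (1.42), Sstr3 (0.919), Sstr4 (0.420), Sstr5 (1.43) and Hhex (1.15) in the authors' deposited table all had an adjusted p of 1.

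**Figure D1:**
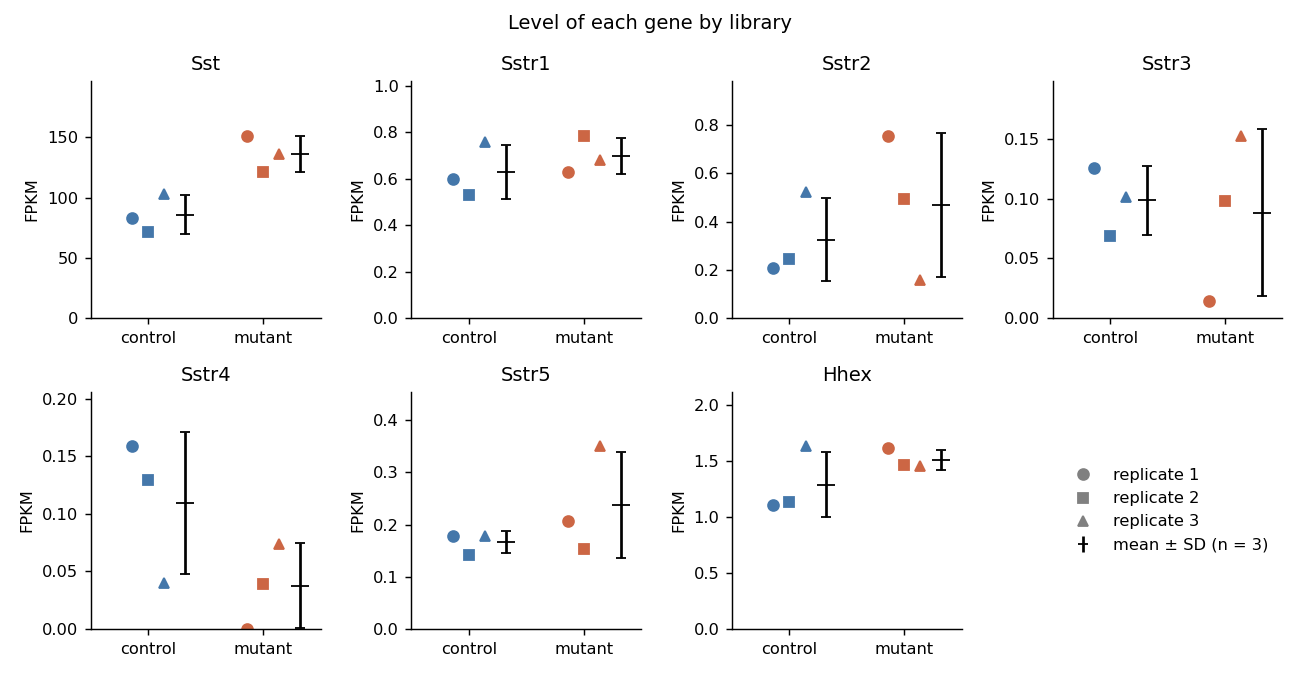
Level in FPKM of Sst, the 5 receptors and Hhex in each library, with a linear axis from 0 for each gene. Blue points are controls and orange points mutants, the shape gives the replicate number, and black bars are the mean ± SD (n = 3); for Sst alone all mutants (121 to 151 FPKM) lie above all controls (71.8 to 103 FPKM).

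Measured against the other hormones of the same library, Sst took a larger share in mutants. It made up 14.5%, 15.5% and 15.1% of the summed FPKM of Sst and 12 other gut hormone genes in controls 1 to 3, and 18.1%, 17.0% and 16.8% in mutants 1 to 3. The means were 15.0 ± 0.524% and 17.3 ± 0.698% (exact permutation p = 0.1, adjusted p = 0.133 over 8 measures of this kind). The share varied much less within a group than the level itself. Most of the remaining sum came from Gip, Sct, Ghrl and Cck, and Ghrl, which encodes ghrelin, itself averaged 95.4 ± 27.3 and 237 ± 25.3 FPKM. With Ghrl left out, Sst made up 17.4%, 18.1% and 18.4% in controls and 25.1%, 24.2% and 24.9% in mutants. The gap was 6.75 percentage points against 2.24 with Ghrl included, a widening that follows from taking out a hormone with a larger ratio than Sst. Against Ghrl alone, Sst stood lower in mutants: the ratio of Sst to Ghrl was 0.854, 1.07 and 0.847 in controls and 0.648, 0.567 and 0.515 in mutants (exact permutation p = 0.1, adjusted p = 0.133). Sst ranked at place 3 or 4 among the 13 hormone genes in every library.

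Against the secretory granule genes shared by endocrine cells, the gap was of the same kind. The log2 level of Sst exceeded the mean log2 level of 10 such genes by 4.22, 4.28 and 4.36 in controls and by 5.25, 5.04 and 4.98 in mutants. The difference between the groups was 0.80 on the log2 scale (exact permutation p = 0.1, adjusted p = 0.133), and the groups did not overlap. All 9 granule genes tested had log2 changes below 0, while 51.2% of all genes tested were above 0. Their median was -0.09 against 0.00 over all genes tested, and 0 passed over all genes. Chga, which encodes chromogranin A, had the lowest change, with means of 28.2 ± 7.25 and 15.2 ± 2.96 FPKM. Chgb, a related granin, was at 77.3 ± 16.1 and 68.7 ± 10.1 FPKM. Vgf, the list member below the filter, had a higher mean in mutants, at 0.144 ± 0.0216 and 0.180 ± 0.0645 FPKM with overlap. Without Chga the difference of Sst from this list was 0.72.

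**Figure D2:**
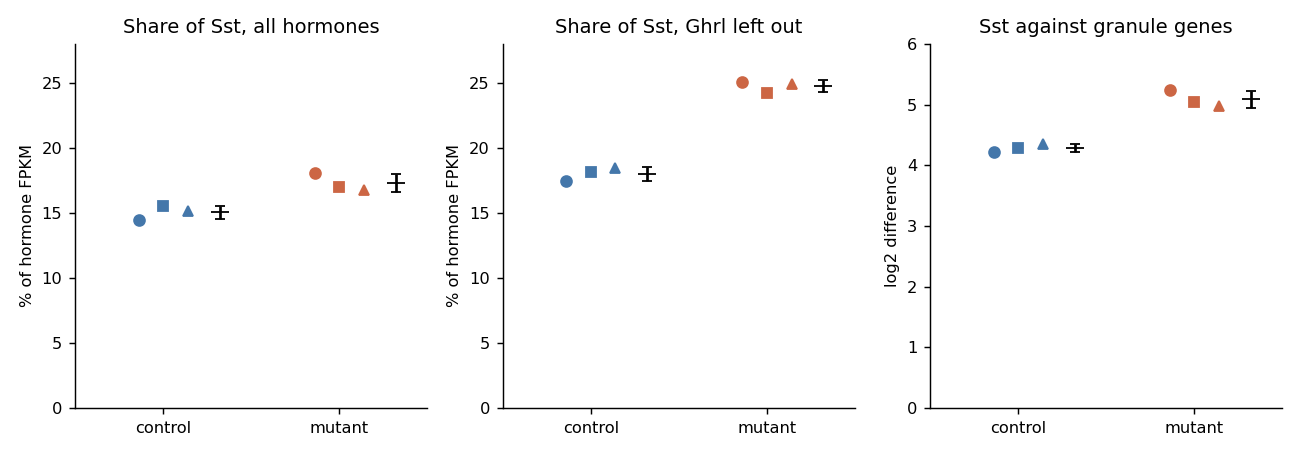
Sst relative to other endocrine transcripts in each library: its percentage of the summed FPKM of 13 hormone genes (left), the same with Ghrl left out (middle), and its log2 level minus the mean log2 level of 10 granule genes (right). Points are libraries and black bars the mean ± SD (n = 3); the groups are apart in each panel, by 2.24 and 6.75 percentage points and by 0.80 on the log2 scale.

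Set beside the other hormones, the change of Sst was neither the largest nor alone in its direction. Of 12 other hormone genes 11 were tested, 5 with log2 changes above 0 and 6 below, and 0 passed over all genes. Gast, which encodes gastrin, Ghrl and Iapp, which encodes amylin, had larger positive values than Sst, at 2.90 (SE 0.88), 1.35 (SE 0.21) and 0.75 (SE 0.47). Gast rested on 1 read in the 3 controls and 22 in the 3 mutants. Gip, at 168 ± 29.8 and 180 ± 33.2 FPKM, and Cck, at 69.6 ± 8.33 and 66.3 ± 8.46 FPKM, had log2 changes of 0.11 (SE 0.17) and -0.07 (SE 0.13). The secretin gene, Sct, was at 120 ± 20.2 and 144 ± 13.8 FPKM. An unadjusted p under 0.05 in limma was found for 2 hormone genes higher in mutants, Gast and Ghrl, and for 4 lower. Over all genes tested the share under 0.05 was 2.84% in either direction, with 1.98% higher in mutants. The 4 lower hormone genes were Nts, Pyy, Gcg and Ucn3. Nts, which encodes neurotensin, was at 1.83 ± 0.355 and 0.308 ± 0.228 FPKM, and Pyy, which encodes peptide YY, at 10.8 ± 5.17 and 4.28 ± 1.88 FPKM. Gcg, the proglucagon gene, was at 6.76 ± 1.804 and 4.11 ± 1.35 FPKM, and Ucn3, which encodes urocortin 3, at 1.20 ± 0.201 and 0.825 ± 0.105 FPKM.

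**Figure D3:**
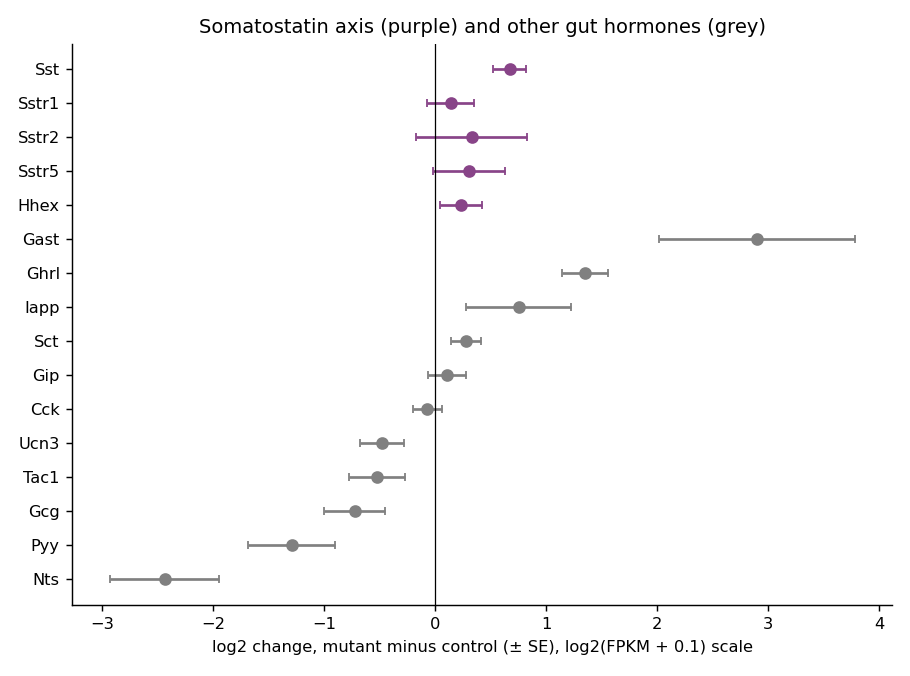
Log2 change from control to mutant on the log2(FPKM + 0.1) scale, with SE, for the 5 tested genes of the somatostatin axis (purple) and 11 other gut hormone genes (grey). The line marks no change; Sst stands at 0.67, below Gast, Ghrl and Iapp, and the hormones run from -2.44 for Nts to 2.90 for Gast.

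Cells other than duodenal D cells that could hold Sst were followed by their markers. Of 10 enteric neuron markers 9 were tested, 4 with log2 changes above 0 and 5 below (median -0.17), and their sum was 47.4 to 61.7 FPKM in controls and 44.6 to 52.7 FPKM in mutants. Vip, an abundant neuropeptide gene, was at 26.9 ± 2.31 and 22.4 ± 2.13 FPKM. Of 6 islet markers 3 were tested, Ins1, Ins2 and Iapp, and all 3 had log2 changes above 0 (median 0.75), with SE of 0.47 for Iapp, 1.22 for Ins2 and 0.79 for Ins1. The islet sum was 0.842 to 5.36 and 3.20 to 6.12 FPKM, and Slc30a8 was at 0 throughout. The 9 pancreatic acinar markers present summed to 5.67 to 48.1 and 10.3 to 50.9 FPKM, with 1 log2 change above 0 and 7 below among 8 tested. The stomach sum, nearly all from Tff2 and Gkn3, was lowest in control 3 (179 FPKM), which had the highest control value of Sst. Mutant 1, with the highest sum, also had the highest Sst. Of the 5 stomach markers tested 4 had log2 changes above 0, and Tff1, a trefoil peptide gene, was at 0.709 ± 0.595 and 2.18 ± 0.215 FPKM without overlap. The remaining marker, Gif, which encodes intrinsic factor, went the other way, at 0.742, 0.0386 and 0.427 FPKM across controls and 0 in every mutant, on 34 and 0 reads. Groups were apart in this way, in either direction, for 7.57% of all genes tested. The part of stomach or islet tissue in the Sst difference was not tested.

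Sst is a short transcript, of 599 bases, and short transcripts as a class stood slightly higher in mutants on average, though not in every library. Over 393 tested genes whose main transcript has 500 to 700 bases, the median log2 change was 0.09, and 70.2% were above 0. The median was lower in each longer class, down to -0.04 over the 3661 genes above 4000 bases. For genes of 500 to 700 bases, the deviation from each gene's mean log2 level was also taken by library. Its median was 0.024, -0.094 and -0.028 in controls 1 to 3 and 0.119, 0.016 and 0.018 in mutants 1 to 3. Mutants 2 and 3 thus lay below control 1, and the groups overlapped. Less the median of its length class, the change of Sst was 0.58. In that class 7.38% of genes had a log2 change at least as large as that of Sst, against 0.109% among genes above 4000 bases. This comparison with length was added after the values were seen, and its part in the Sst difference was not tested further.

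**Figure D4:**
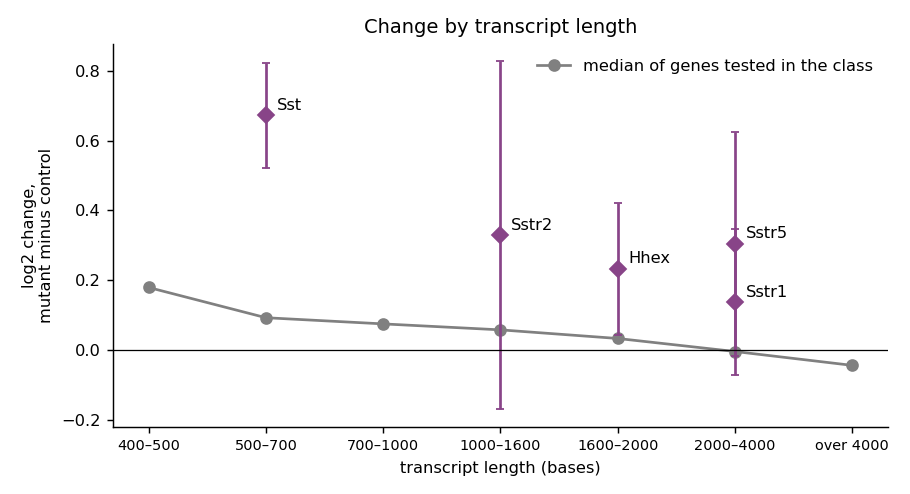
Median log2 change of all tested genes by the length of their main transcript in bases (grey line) and the log2 change ± SE of the 5 tested genes of the somatostatin axis at their own length (purple). The median runs from 0.18 at 400 to 500 bases to -0.04 above 4000 bases, and Sst, at 0.67, lies 0.58 above its class.

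The receptors were all transcripts of low level, and the groups overlapped for each of them. Their summed FPKM was 1.27, 1.11 and 1.60 for controls 1 to 3 and 1.61, 1.57 and 1.41 for mutants 1 to 3 (exact permutation p = 0.3, adjusted p = 0.343). Sstr1 held 47.3%, 47.5% and 47.4% of that sum in controls and 39.2%, 50.01% and 48.1% in mutants. By mean level the order was Sst, Hhex, Sstr1, Sstr2, Sstr5, Sstr3 and Sstr4. Sst lay above Hhex, and Hhex above Sstr1, in 6 of 6 libraries with ranges apart. Every later neighbour in that order overlapped the next in range. Even so, Sstr1 exceeded Sstr2 in 5 of 6 libraries, Sstr2 exceeded Sstr5 in 5, Sstr5 exceeded Sstr3 in 6 and Sstr3 exceeded Sstr4 in 4.

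Sstr1 spans chr12:59312791-59317023 in the deposited mm9 model. Controls 1 to 3 measured 0.600, 0.530 and 0.758 FPKM, and mutants 1 to 3 measured 0.630, 0.785 and 0.680 FPKM. The mutants lay within or close to the range of the controls, and the fitted log2 change was 0.14 (SE 0.21; exact permutation p = 0.4; limma adjusted p = 1.00). Left-out libraries moved that change to 0.038 without control 2, 0.061 without mutant 2 and 0.26 without control 3. On 144 and 164 reads the ratio of read rates was 1.11, with an exact 95% interval of 0.881 to 1.40.

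Sstr2, the receptor through which many endocrine cells are restrained, measured 0.208, 0.246 and 0.522 FPKM across controls 1 to 3 and 0.756, 0.494 and 0.158 across mutants 1 to 3. The libraries with the highest and the lowest value were thus both mutants, on 13 and 3 reads. Its log2 change was 0.33 (SE 0.50; limma adjusted p = 1.00), which became -0.049 without mutant 1, 0.82 without mutant 3 and -0.25 among the 4 female libraries. The read-rate ratio was 1.35, with an interval of 0.709 to 2.63. The deposited model of Sstr2 covers chr11:113485571-113486950, or 1380 bases. On the same build GENCODE M1 gives the gene 6664 bases from position 113480656, and the promoter window shown above matched mm9 at chr11:113480391-113480690. Reads from exons outside the deposited model do not enter its FPKM.

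Sstr5 measured 0.177, 0.141 and 0.178 FPKM across controls 1 to 3 and 0.208, 0.154 and 0.350 across mutants 1 to 3. The highest value, in mutant 3, rested on 19 reads, and the other mutants lay close to the controls. The log2 change was 0.30 (SE 0.32; limma adjusted p = 1.00), with a read-rate ratio of 1.44 and an interval of 0.845 to 2.50. Without mutant 3 the log2 change was 0.075, and without mutant 2 it was 0.49. The gene lies at chr17:25626820-25634233.

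Sstr3 and Sstr4 stayed below 0.2 FPKM on average and were outside the test across all genes. Sstr3, at chr15:78367445-78374775, measured 0.126, 0.0686 and 0.101 FPKM across controls and 0.0141, 0.0981 and 0.153 across mutants. These rested on 23 and 22 reads in all, and the groups overlapped. Its log2 difference of -0.14 became 0.18 without mutant 1, which had 1 read. Sstr4 measured 0.159, 0.130 and 0.0399 FPKM across controls and 0, 0.0387 and 0.0741 across mutants, on 8 and 3 reads in all. The deposited model of Sstr4 covers 1388 bases, against 5127 for the gene in GENCODE M1, and reads outside that model are not counted. A difference was not detectable at this depth, since the read-rate ratio of 0.365 had an interval of 0.0624 to 1.52 (exact permutation p = 0.2). Sstr4 lies at chr2:148221113-148222500, 1.20 Mb from Nkx2-2, the targeted gene, so for Sstr4 the effects of linked sequence and of genotype cannot be told apart.

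**Figure D5:**
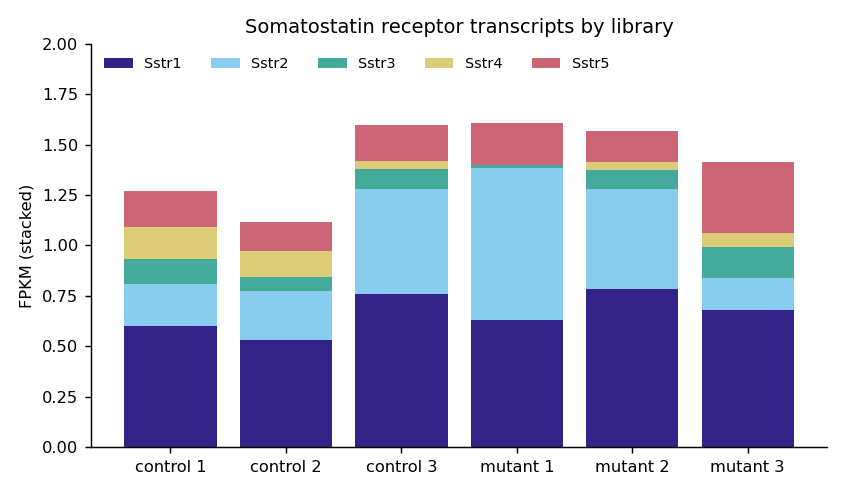
FPKM of the 5 somatostatin receptor genes stacked for each library. The stacks reach 1.11 to 1.60 FPKM in controls and 1.41 to 1.61 FPKM in mutants, Sstr1 is the largest part in 5 of 6 libraries, and the size of the Sstr2 part differs most between libraries.

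The isoform tables gave no call among these genes. Of 17922 isoforms tested, 5 (0.0279%) passed after adjustment, and none of the 4 tested isoforms of these genes was among them. The deposited tables hold 2 isoforms each for Sstr2 and Sstr5, and in every library all reads of the gene were assigned to a single one of them. For Sstr2 this was NM_001042606 in controls 1 and 3 and mutant 1, and NM_009217 in control 2 and mutants 2 and 3. For Sstr5 it was NM_011425 in control 2 and mutant 1, and NM_001191008 in the other 4 libraries. With 3 to 19 reads per library, these assignments do not show a switch between isoforms.

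Hhex was present in every library at a low level and its groups overlapped. It lies at chr19:37509331-37515221 and measured 1.11, 1.13 and 1.63 FPKM across controls 1 to 3 and 1.61, 1.46 and 1.45 across mutants 1 to 3. Control 3 reached the highest value of all, and the groups overlapped because of it. The means were 1.29 ± 0.294 and 1.51 ± 0.0885 FPKM, and the fitted log2 change was 0.23 (SE 0.19; exact permutation p = 0.4; limma adjusted p = 1.00). Without control 3 the change was 0.40, still at a limma adjusted p of 1.00, and without control 1 or control 2 it was 0.14 or 0.15. The exact permutation p without control 3 was 0.1, the smallest that the libraries left allow. It adds no support, since control 3 alone made the groups overlap. On 125 and 150 reads the read-rate ratio was 1.17, with an interval of 0.916 to 1.49. The ratio of Sst to Hhex was 75.1, 63.7 and 63.4 in controls and 94.0, 82.96 and 93.4 in mutants (exact permutation p = 0.1, adjusted p = 0.133).

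Other cells that express Hhex were followed as well. The 8 endothelial markers summed to 40.8 to 52.9 FPKM in controls and 47.1 to 50.1 FPKM in mutants, with 3 log2 changes above 0 and 5 below. The 7 B cell markers summed to 23.9 to 25.7 and 27.8 to 29.8 FPKM without overlap, nearly all from Cd79a and Cd79b. Of the 7 markers 5 were tested, 4 with log2 changes above 0 and Ms4a1 at -0.17. Cd79a, a signalling chain of B cells, was at 13.8 ± 0.539 and 16.5 ± 1.37 FPKM. Cd79b was at 9.89 ± 1.35 and 10.8 ± 2.08 FPKM, and its groups overlapped. The 6 duct markers summed to 730 to 824 and 704 to 821 FPKM, nearly all from Krt19, and Onecut1 was at or near 0. Cftr, the chloride channel gene of ducts and gut epithelium, had every mutant below every control, at 31.9 ± 1.51 and 26.9 ± 1.71 FPKM. The 6 macrophage and myeloid markers present summed to 212 to 262 and 199 to 304 FPKM, with 1 log2 change above 0 and 5 below. Of these markers 1 had every mutant below every control. Groups that did not overlap, in either direction, were found for 7.57% of all genes tested. The part of these cells in the level of Hhex was not tested.

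No factor that acts in D cells or on the Sst promoter passed the test. Of 15 such genes 14 were tested, 8 with log2 changes above 0 and 6 below, with a median of 0.03. Pax4, which acts early in endocrine cells and in the D cell lineage of the islet, had the smallest p. It measured 0.507, 0.646 and 0.533 FPKM across controls and 0.190, 0.278 and 0.237 across mutants. All mutants were below all controls, and the fitted log2 change was -0.99 (SE 0.24). Over all genes tested, 7.57% had groups that did not overlap, in either direction. Isl1, a LIM homeodomain factor that can activate Sst, measured 1.01, 0.616 and 0.670 FPKM across controls and 1.13, 1.12 and 0.942 across mutants, with overlap through control 1. Pax6, a paired-box factor of islet and gut endocrine cells, was at 0.271 ± 0.0279 and 0.448 ± 0.152 FPKM, with every mutant above every control. Foxa2, a forkhead factor, was at 1.78 ± 0.322 and 2.19 ± 0.210 FPKM. Its groups were also apart, but barely, with control 1 at 1.974 FPKM and mutant 2 at 1.997 FPKM. Of the 14 genes tested, 2 thus had every mutant higher and 1 had every mutant lower. Pdx1, a duodenal and islet factor that binds the Sst promoter, was at 69.7 ± 13.3 and 62.4 ± 13.96 FPKM. Creb1, which encodes CREB, was at 6.97 ± 0.560 and 7.08 ± 0.488 FPKM, and Nkx2-2 itself at 0.812 ± 0.229 and 0.748 ± 0.174 FPKM.

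Of 7 genes known to be enriched in islet delta cells or gastric D cells, only Rbp4, Lepr and the fatty acid receptor gene Ffar4 reached the filter. Rbp4, which encodes a retinol carrier, measured 5.84, 3.40 and 3.53 FPKM across controls and 7.57, 6.27 and 5.59 across mutants. Its groups overlapped through control 1 alone, and the log2 change of 0.63 (SE 0.23) did not pass (limma adjusted p = 1.00). Ffar4, listed under the older symbol O3far1, was at 3.01 ± 0.557 and 3.06 ± 0.506 FPKM, and the leptin receptor gene Lepr at 2.38 ± 0.709 and 2.27 ± 0.123 FPKM. Ghsr, the ghrelin receptor gene, had 3 reads in the 3 controls and 0 in the mutants, and Cckbr, the gastrin receptor gene, had 1 and 2 reads. Crhr2, a urocortin receptor gene, had 6 and 17 reads, and Casr, the calcium-sensing receptor gene, had 5 and 11; the groups overlapped for Casr and, with means of 0.0390 and 0.110 FPKM, for Crhr2.

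Genes on either side of the hormone, its processing and its signalling, gave no call either. All 6 processing genes were tested, with 4 log2 changes above 0 and a median of 0.02. Pcsk1, a convertase of endocrine granules, was at 3.13 ± 0.182 and 2.89 ± 0.369 FPKM, its relative Pcsk2 at 0.394 ± 0.113 and 0.507 ± 0.106 FPKM, and Furin, a convertase of most cells, at 28.3 ± 2.40 and 26.4 ± 1.92 FPKM. Of 25 signalling partners 22 were tested, 10 with log2 changes above 0 and 12 below, the median was -0.04 and 0 passed. Gnai2, the most abundant inhibitory G protein subunit here, was at 150 ± 2.55 and 143 ± 15.3 FPKM. Adcy6, an adenylyl cyclase, was at 31.8 ± 5.24 and 36.7 ± 3.92 FPKM, and Arrb2, a beta-arrestin, at 10.2 ± 0.720 and 11.5 ± 0.729 FPKM. Cort, which encodes cortistatin, the other ligand of these receptors, had 3 and 5 reads.

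The genes whose profile over the 6 libraries was most like that of Sst were not endocrine genes. Among 12307 genes averaging 1 FPKM or more, Pearson's r of log2(FPKM + 0.1) was highest for Atp5g2 (0.985), Rps21 (0.983), Rpl37a (0.981), Pebp1 (0.974) and Tbca (0.973). Atp5g2 encodes a subunit of mitochondrial ATP synthase, Rps21 and Rpl37a are ribosomal protein genes with copies elsewhere in the genome, and Tbca encodes a tubulin folding cofactor. Atp5g2, for example, was at 207 ± 13.1 and 255 ± 7.99 FPKM. In all, 117 genes had r over 0.9 with Sst, and 65 with Hhex. For Hhex the leading genes were Mir703 (0.982), a microRNA gene, Rhbdd3 (0.973), Gsta2 (0.972), Zfp639 (0.968) and Hist3h2a (0.967). The points of each r share 6 libraries and their scaling, and those of Sst also share the split into groups, so the values are descriptions.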

How the data were processed

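RNA-seq tables of 6 libraries were used. CASAVA 1.8.2, TopHat, Cufflinks and DESeq are named with mm9 in the submitters' processing notes; their settings are not given in these sources. Per the file headers, the authors' tables give FPKM per gene and isoform, and the isoform tables also give coverage, an unscaled signal, and transcript length. The authors' deposited comparison gives group means of normalized counts, fold changes (ratio and log2) and p-values. Of 23699 gene rows, 464 repeats of a symbol were dropped (the row with the highest mean was kept), and then 209 symbols without a successful estimate in every library.

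Genes averaging 0.2 FPKM or more were compared on log2(FPKM + 0.1) with limma 3.58.1 (R 4.3.3, trended prior), two-sided, as mutant less control. P-values were adjusted by Benjamini-Hochberg over all 14642 genes, with 0.05 as threshold. It was tested on simulated data. Single measures were compared with exact two-sided permutation tests. Reads were estimated as coverage times length less 210.4 bases, over a read length of 101 bases, and came out whole within 0.05 for 69.1% to 70.7% of values under 50 reads. They therefore serve as depth, for limma-voom as an alternative, and for 95% intervals. Changes on the log2(FPKM + 0.1) scale understate those of low genes. Symbols renamed since, 4 of those in the lists, were matched through RefSeq synonyms. Deposited starts were shifted to count from 1, as checked against GENCODE M1.

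The 7 genes and the lists were chosen with earlier results of these data known. The text names the 7 genes, up to 3 genes of each list by smallest p with any hormone or D cell factor, and the 5 genes most like Sst and Hhex. Gnai2, Chgb, Tff2, Gkn3, the markers near 0 and other list members outside that rule were chosen after their values were seen.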

Additional observations from a re-analysis of the deposited data

How the results depend on the processing

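No call of the 7 genes depended on the processing, since none was past the threshold in any setting run. The settings were pseudocounts of 1 and 0.01, no filter, a filter of 1 FPKM, no trend, quantile normalization, array weights, limma-voom, a replicate block, the reporter libraries alone, each library left out, and, added after seeing the data, sex as a term, female libraries alone and the median of genes of like length taken off. Sst kept its direction in all 19 alternatives, with log2 changes from 0.55 to 0.89 and limma adjusted p from 0.544 to 1.00, as did Hhex, from 0.10 to 0.42. Sstr1 (0.04 to 0.26) and Sstr5 (0.08 to 0.52) kept theirs in 17 each and Sstr4 in 10. For Sst the direction was fixed in advance where libraries were left out or the pseudocount changed, since every mutant lay above every control. The filters, the trend setting, the replicate block and the sex term cannot move a fitted change, and Sst stayed at 0.67. These settings are therefore not separate support. Leaving out libraries moved Sstr2 between -0.049 and 0.82 and Sstr3 between -0.39 and 0.18. Both changed sign without mutant 1, at -0.049 and 0.18; the cause was not tested. Among female libraries Sstr2 was at -0.25. Across all genes limma called 0, with 416 at an unadjusted p under 0.05 (limma-voom called 0, with 384); with a library left out the count was 0 to 3, namely 1 without control 1, control 2, mutant 1 or mutant 3 and 3 without control 3, and it was 2 among the reporter libraries. Replicate numbers showed no clear pairing: deviations of same-numbered libraries correlated at 0.21, 0.05 and 0.22, and control 2 correlated best with mutant 3. With the replicate block 1 gene was called, none of the 7, and Sst had an adjusted p of 0.609. Sstr3 and Sstr4 lay below the filter, so settings that need the fit gave them no value. Sstr2 to Sstr5 are limited by depth, at 0 to 19 reads per library.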
